A study of Mus musculus with 9 samples.

Results

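The 10 genes described here encode transcription factors of mesoderm and mesenchyme, namely Meox1, Foxc1, Foxc2, Foxf1, Tbx1, Twist1, Snai1, Snai2, Ets1 and Prrx1. They were chosen by name, and every probe set annotated to 1 of these symbols alone was taken. This gave 21 of the 45101 probe sets on the array, and 10 of the 18193 genes with a probe set of their own. Of the 10 genes, 5 had 1 probe set and 5 had several.

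RNA from mouse Ainv15 embryonic stem (ES) cells and their derivatives was measured on 9 Affymetrix arrays, 3 in each of 3 groups. All groups carried a construct from which doxycycline (Dox) induces V5-tagged Cdx2, a caudal homeobox factor, so the controls carry it too. The ES group was untreated day 0 cells from cultures with LIF on mitomycin-C-treated fibroblasts, which may add their own RNA. The motor neuron group was day 5 cultures made from embryoid bodies given 1 µM retinoic acid and 0.5 µM of a hedgehog agonist on day 2. The remaining group, called Cdx2 and FGF cultures here, was day 5 cultures that also received Dox at 2 µg/ml on day 3 over 6 to 8 hours, with 100 ng/ml of basic FGF. The growth protocol also gives 100 nM retinoic acid and 100 nM hedgehog agonist alongside FGF, without naming the cultures this applied to. Dox, Cdx2 and FGF came together, so their parts cannot be told apart. The labels do not say that the 3 arrays of a group came from separate cultures, and the p-values reflect no more than the spread among these arrays, which may be technical.

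Mesoderm forms when epithelial cells of the primitive streak and tail bud lose their junctions and move beneath the surface, an epithelial to mesenchymal transition. Twist1, Snai1 and Snai2 are known drivers of that transition, and the Snail factors bind E-boxes and repress epithelial genes such as Cdh1. Meox1 acts in the somites, Foxc1 and Foxc2 in paraxial mesoderm and vessels, Foxf1 in lateral plate mesoderm, where hedgehog signals activate it, and Tbx1 in pharyngeal mesoderm. Prrx1 belongs to limb and facial mesenchyme and Ets1 to endothelium, blood and migrating crest cells. Several of these genes are also used by the neural crest, which forms mesenchyme from the edge of the neural plate.

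Levels are log2 values, and the lowest value on the arrays was 2.165, so a level printed as 2.17 is at or next to that floor. The tests covered the 10911 genes that exceeded 4 on 3 or more of the 9 arrays. Calls, higher or lower, needed a Benjamini-Hochberg adjusted p under 0.05 and a log2 difference of 1 or more. Each gene was followed by its probe set with the highest mean unless another is named. Folds with arrays of the dimmer group under 4 are lower bounds, computed with those arrays raised to 4. Such a bound concerns the floor only and leaves out the spread among arrays.

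The ES arrays stood apart in several measures of quality. Replicate arrays correlated at 0.967 to 0.974 among ES cells, 0.995 to 0.997 among motor neuron cultures and 0.998 among those with Cdx2 and FGF. Actb control probe sets, whose gap between 3′ and 5′ ends is a sign of RNA or amplification quality, read higher at the 3′ end by 1.87 to 2.3 on ES arrays, with a gap of -0.1 to -0.01 on the day 5 arrays. The same gap of Tfrc was 5.59 to 6.86 on ES arrays and -1.74 to -1.39 on day 5 arrays. That of Gapdh overlapped between ES and motor neuron arrays, at 0.63 to 1.05 and 0.59 to 0.65. On Cdx2 and FGF arrays the Gapdh gap was lower than on either, at 0.51 to 0.54. Cdx2 itself read 2.17 to 2.24 on the ES and motor neuron arrays and 8.27, 8.99 and 8.59 in Cdx2 and FGF cultures. Of 6 ES cell markers, 6 exceeded 4 on each ES array and 1 on each day 5 array. Of 8 markers of motor neurons and their progenitors, 2 exceeded 4 on each ES array, 5 to 6 on motor neuron arrays and 4 to 5 with Cdx2 and FGF.

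Promoter sequences of 300 bases, from 250 before to 50 after the start of a transcript, were at hand for 5 of the 10 genes (RefSeq, GRCm38.p6). They are shown for 3 genes that differed between the day 5 cultures, and for Snai1, which stayed at the floor. Capitals mark the Cdx letters TTTATNG or their complement CNATAAA, and the E-box letters CANNTG, with both strands searched.
Foxc1 (chr13:31806396-31806695, + strand): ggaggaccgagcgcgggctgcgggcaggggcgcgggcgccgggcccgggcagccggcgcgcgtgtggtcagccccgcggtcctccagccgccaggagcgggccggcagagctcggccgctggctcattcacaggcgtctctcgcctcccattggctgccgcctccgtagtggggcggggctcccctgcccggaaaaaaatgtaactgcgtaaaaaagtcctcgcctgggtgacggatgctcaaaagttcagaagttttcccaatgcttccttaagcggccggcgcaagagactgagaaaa
Tbx1 (chr16:18590622-18590921, - strand): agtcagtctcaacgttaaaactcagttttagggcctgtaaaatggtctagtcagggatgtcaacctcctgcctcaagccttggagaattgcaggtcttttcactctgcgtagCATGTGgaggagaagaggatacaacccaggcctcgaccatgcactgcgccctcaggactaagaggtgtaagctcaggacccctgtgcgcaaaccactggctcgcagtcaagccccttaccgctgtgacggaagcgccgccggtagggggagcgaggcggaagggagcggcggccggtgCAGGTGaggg
Twist1 (chr12:33957421-33957720, + strand): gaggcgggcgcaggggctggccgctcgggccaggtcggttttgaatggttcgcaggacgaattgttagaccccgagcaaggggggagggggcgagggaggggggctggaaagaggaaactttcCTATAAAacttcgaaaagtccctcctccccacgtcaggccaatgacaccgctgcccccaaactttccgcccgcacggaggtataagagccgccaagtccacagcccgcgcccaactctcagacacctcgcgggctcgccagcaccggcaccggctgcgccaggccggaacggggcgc
Snai1 (chr2:167537945-167538244, + strand): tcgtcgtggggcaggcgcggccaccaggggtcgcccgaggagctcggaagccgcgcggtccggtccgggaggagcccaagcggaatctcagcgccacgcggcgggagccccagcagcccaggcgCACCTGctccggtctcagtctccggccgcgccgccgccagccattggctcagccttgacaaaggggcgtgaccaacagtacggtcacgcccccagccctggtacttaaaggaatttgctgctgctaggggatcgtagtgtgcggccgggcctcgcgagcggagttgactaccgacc
The Cdx letters occurred in 1 of the 6 promoters of these genes, that of Twist1, against 10.9% of all 32851 promoters in the table. There they include TATAAA, the core of a TATA box. E-box letters occurred in 2 of the 6, against 72.3% of all promoters, and both held the form CAGGTG or CACCTG that Snail factors prefer, against 20.2%. The forkhead letters GTAAACA and the T-box letters GGTGTGA, searched on both strands, were in 0 of the 6, against 3.65% and 3.98%. The promoters shown are rich in CpG, with 32 in that of Foxc1, 16 in that of Tbx1, 27 in that of Twist1 and 34 in that of Snai1, where the median of all promoters is 7. That of Prrx1 held 6 and a second Tbx1 promoter 26. These matches describe the letters in these windows only.

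The day 5 cultures were compared with each other to see what differed once Cdx2 was induced and FGF given. Mesodermal factors that were at the floor in motor neuron cultures were well above it in Cdx2 and FGF cultures, led by Meox1, which was at least 123-fold higher. Foxc1, Foxc2, Foxf1, Tbx1 and Ets1 were at least 19.7-fold to 44.5-fold higher, and Twist1 15.3-fold. Snai1 and Prrx1 were at the floor in both kinds of culture. Of the 10 genes 8 were tested, and 8 were called higher, where 11.2% of all genes tested were. None was lower, beside 8.61% of genes, and 19.8% of genes were called in either direction. Meox1, Foxc1, Foxc2, Foxf1 and Tbx1 passed the filter only because of their Cdx2 and FGF values. Outside these cultures Foxc2 exceeded 4 on ES replicates 2 and 3 alone, too few to pass. A call for these genes could therefore have just 1 direction, and the count describes these genes and supports nothing further. The same limit holds for the median log2 difference over all 10 genes. It was 6.33, or 4.52 with values under 4 raised to 4, against 0.04 over all genes tested. In such bulk samples, fewer cells of a type and less RNA per cell cannot be told apart.

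Meox1, a homeobox factor of the somites, read 10.74, 11.04 and 11.06 in Cdx2 and FGF cultures and 2.17 on each of the other 6 arrays. The groups did not overlap, and the 3 high arrays lay close together. The log2 difference from motor neuron cultures was 8.78 (SE 0.2, adjusted p = 1.47e-08). Its paralog Meox2 read 2.17 on every motor neuron and Cdx2 and FGF array.

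The 3 forkhead genes behaved alike in the day 5 cultures and unlike in ES cells. Motor neuron arrays gave 2.34, 2.34 and 2.29 for Foxc1, and Cdx2 and FGF arrays 8.77, 9.05 and 9.35, at least 33.3-fold higher (log2 difference 6.74, SE 0.22, adjusted p = 7.33e-08). Foxc2 read 2.19 on each motor neuron array and 8.45, 8.64 and 9.13 with Cdx2 and FGF, at least 26.7-fold higher (difference 6.55, SE 1.11, adjusted p = 0.0017). The larger SE of Foxc2 follows from its ES arrays, which share the fit and spread from 2.9 to 8.59.

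Foxf1, a hedgehog target of lateral plate mesoderm, read 2.21, 2.17 and 2.17 against 8.52, 8.7 and 9.69, at least 31.3-fold higher (difference 6.79, SE 0.3, adjusted p = 4.07e-07). Its other probe set gave 2.17 on each motor neuron array and 8.63, 8.96 and 8.88 in the other group. Both probe sets of Foxf1 therefore moved together, as did those of Foxc1, whose second one read 2.17 on each motor neuron array against 5.63, 6.92 and 6.56. Tbx1, a T-box factor of pharyngeal mesoderm, read 2.18 on each motor neuron array and 8.39, 8.15 and 8.35 with Cdx2 and FGF (at least 19.7-fold, difference 6.12, SE 0.19, adjusted p = 6.55e-08). None of these groups overlapped.

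**Figure D1:**
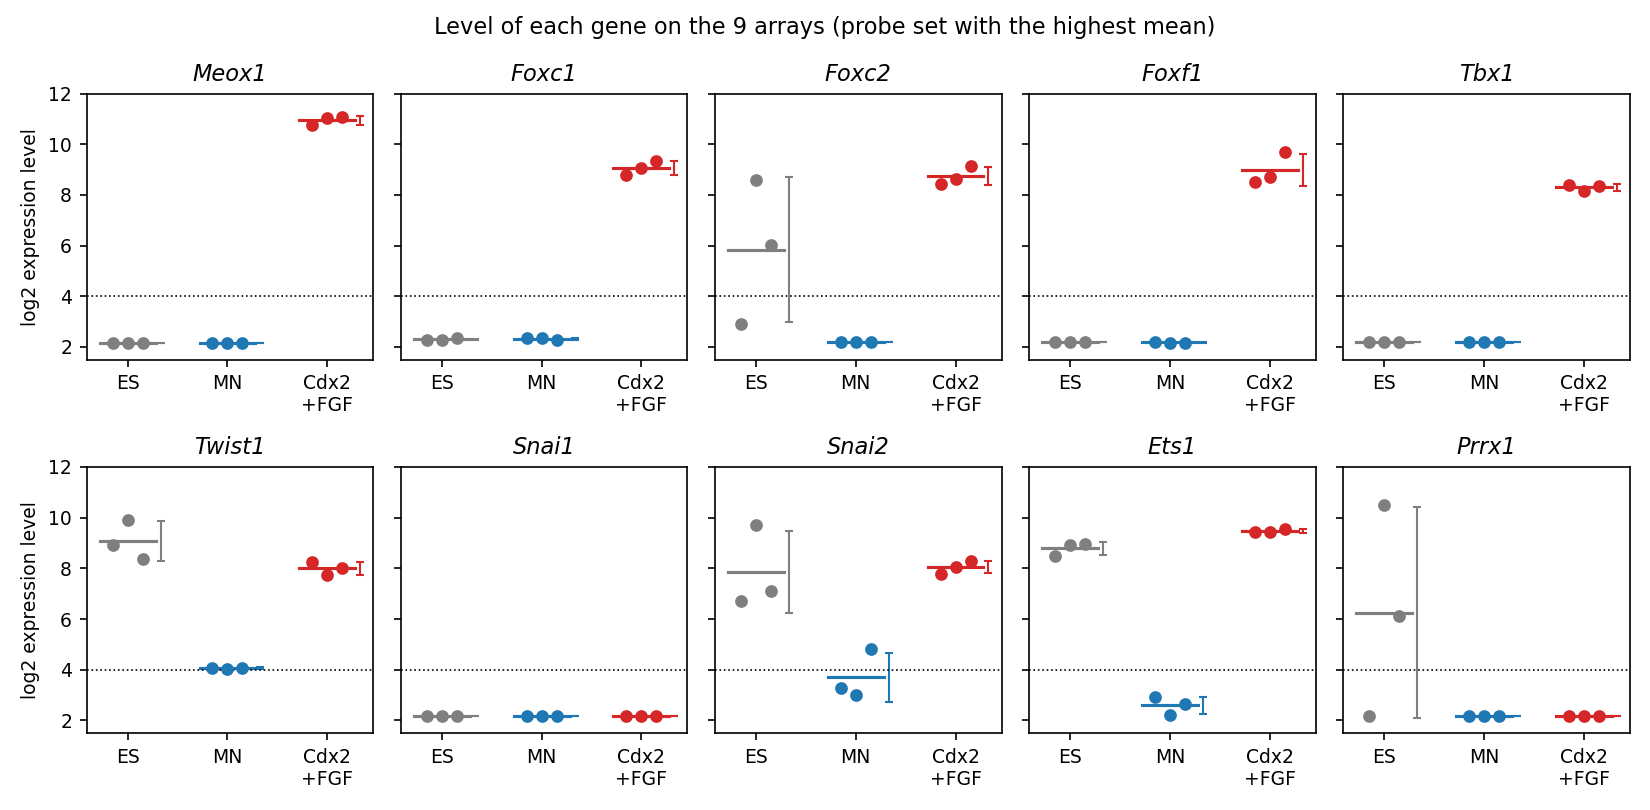
Log2 expression level of each of the 10 genes (its probe set with the highest mean) on the 9 arrays of ES cells (ES), motor neuron cultures (MN) and Cdx2 and FGF cultures. Points are arrays, horizontal lines group means, error bars 1 SD and the dotted line the level of 4; Meox1, Foxc1, Foxf1 and Tbx1 exceed 4 only in Cdx2 and FGF cultures, Snai1 on no array and Prrx1 on 2 ES arrays.

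Among drivers of the mesenchymal transition, Twist1 was the clearest. It read 4.08, 4.04 and 4.08 in motor neuron cultures against 8.26, 7.75 and 8 with Cdx2 and FGF, 15.3-fold higher with no overlap (difference 3.94, SE 0.37, adjusted p = 4.22e-05). Snai1 read 2.17 on all 9 arrays and was not tested, so no difference could be seen with its only probe set. Snai2 read 3.3, 3.02 and 4.81 in motor neuron cultures and 7.79, 8.07 and 8.29 with Cdx2 and FGF by the probe set with the higher mean, at least 13.8-fold higher (difference 4.34, SE 0.75, adjusted p = 0.00189).

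The Snai2 call rests on that probe set alone. It is of the x_at kind, whose probes can also match other transcripts. The other probe set of Snai2 read 2.44, 2.35 and 2.44 against 2.58 on each Cdx2 and FGF array, too low to be tested. Without probe sets of the x_at and s_at kinds, 7 of the 10 genes were called higher and Snai2 was no longer tested.

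Ets1, the founding ETS factor, read 2.92, 2.24 and 2.65 in motor neuron cultures against 9.44, 9.44 and 9.55 with Cdx2 and FGF, at least 44.5-fold higher (difference 6.88, SE 0.25, adjusted p = 1.28e-07). By another probe set it went from 2.17 on each motor neuron array to 8.05, 7.87 and 8.17, and by yet another from 2.25 or less to 6.76, 7.6 and 6.65. The fourth read 2.95, 4.12 and 2.57 in Cdx2 and FGF cultures and was not tested. Fli1, an ETS gene next to Ets1 on the chromosome, stayed at 2.17 on every day 5 array. Prrx1, of limb mesenchyme, had 6 probe sets, and its leading one read 2.17 on every day 5 array. The highest value of any Prrx1 probe set in Cdx2 and FGF cultures was 2.25.

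Counted by probe set, 12 of the 21 passed the filter and 12 were called higher in Cdx2 and FGF cultures, against 11.1% of the probe sets tested; this again includes those that passed only through these cultures.

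**Figure D2:**
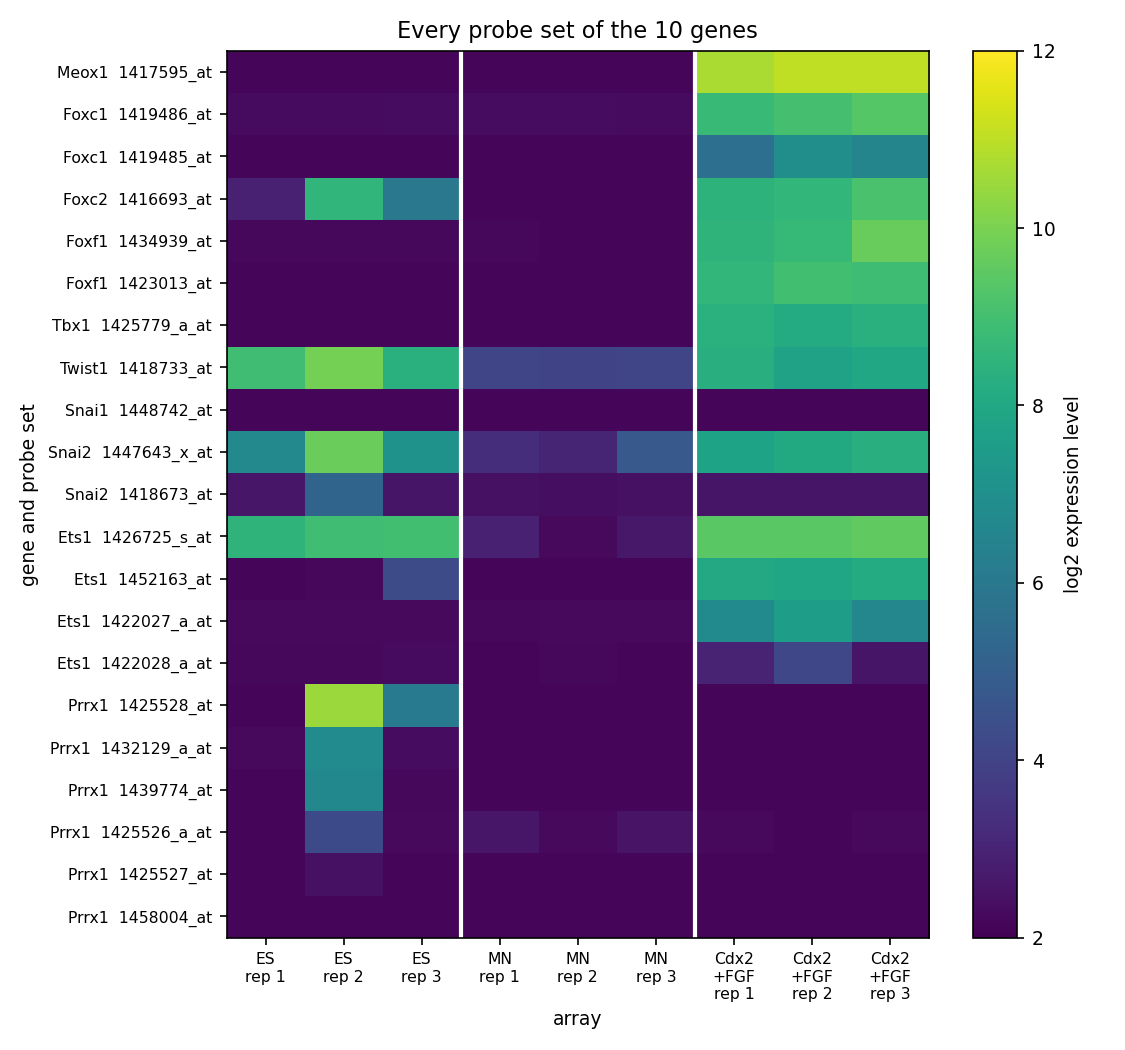
Log2 expression level of the 21 probe sets (rows) on the 9 arrays (columns, grouped by white lines; MN, motor neuron cultures). The probe sets of Foxc1 and Foxf1 share 1 pattern. Those of Ets1, and those of Snai2, differ from each other on both the ES arrays and the Cdx2 and FGF arrays. Those of Prrx1 are bright mostly on ES replicate 2.

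Genes that share the tissue of these factors did not move as a block. Of 66 other mesoderm and mesenchyme factors listed, 60 had a probe set, and 12 to 13 of them exceeded 4 on a Cdx2 and FGF array against 10 to 11 in motor neuron cultures. Of 17 tested, 5 were higher and 4 lower, beside 11.2% and 8.61% of all genes tested, with a median difference of 0. Twist2, a close relative of Twist1, read 2.17 on each motor neuron array and 9.2, 9.45 and 9.78 in Cdx2 and FGF cultures, at least 44.5-fold higher (adjusted p = 0.00245). Pax9, a factor of the sclerotome and pharyngeal pouches, was at least 34.4-fold higher (adjusted p = 2.52e-05), and Prrx2 at least 5.37-fold (adjusted p = 5.04e-07), from 2.18 to 6.2, 6.69 and 6.38. The falls included Lhx1, also a gene of spinal interneurons, at least 4.22-fold lower. The filter partly fixed the counts and median of this list. Twist2, Pax9, Prrx2 and Foxd2 passed only because of their Cdx2 and FGF values, and Lhx1 and Gata6 only because of their motor neuron values. Wt1, Snai3 and Tbx3 passed through ES arrays alone and stayed under 4 on every day 5 array.

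Several early and segmental mesoderm genes were at the floor throughout. Tbx6 and Msgn1, of presomitic mesoderm, read 2.17 on all 9 arrays, and Mesp1 did so on every day 5 array. Foxf2, the neighbour of Foxc1 and paralog of Foxf1, reached at most 2.33 in Cdx2 and FGF cultures. Tcf15, a somite factor, went from 7.3 ± 0.4 to 8.15 ± 0.44 (SD, n = 3), which missed the call (adjusted p = 0.0677). These genes, the paralogs above, and Vim, Cdh2, Cdh11, Lox, S100a4, Postn, Zeb1, Zeb2, Sox9 and Ednrb below were chosen after their values were seen.

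The mesenchymal effector genes, which encode matrix, adhesion and contractile proteins, were higher wherever they were called. Of 20 with a probe set, 17 were tested, 11 were higher and 0 lower, with a median difference of 3.61, or 3.55 with low values raised. Acta2 and Tagln, of contractile cells, were at least 517-fold and 330-fold higher, the secreted matrix protein gene Ccn1 77.9-fold and the matrix protease gene Mmp2 at least 62-fold. Cdh2, the N-cadherin gene, and Vim, a mesenchymal and neural filament gene, had differences of -0.35 and -0.07 with no call, from 11.96 and 14.56 in motor neuron cultures. Cdh11 read 10.17, 10.01 and 8.33 in motor neuron cultures and 7.73, 7.46 and 7.52 with Cdx2 and FGF. It was thus lower with no overlap, but not called. Lox, S100a4 and Postn read 2.17 on every day 5 array.

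The epithelial genes known as Snail and Zeb targets were called in both directions. Of 17 tested, 5 were higher and 1 lower, beside 11.2% and 8.61% of all genes tested, with a median difference of 0.01. Among them Cldn4, Ocln, Esrp1, Grhl2 and Mal2 passed the filter through ES arrays alone and read 2.17 on every day 5 array. Cldn7 and Crb3 also stayed under 4 on the day 5 arrays. No day 5 difference could be seen for such genes, so the median says little of the detected ones. Krt19, of keratin filaments, was at least 220-fold higher, Dsp, of desmosomes, 21.8-fold and Cldn6 at least 7.73-fold, while Cldn3 was at least 10.7-fold lower. Cdh1 read 3 ± 0.37 in motor neuron cultures and 3.97 ± 0.35 with Cdx2 and FGF (SD, n = 3), below the difference needed for a call. The repressor genes Zeb1 and Zeb2 were high in both, at 11.36 and 10.41 against 11.21 and 10.08, with no call.

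Markers of other cell types moved alongside. All 5 neuron markers were lower in Cdx2 and FGF cultures, and their mean level was 8.84 to 9.27 against 13 to 13.46. Of 8 motor neuron and progenitor markers 5 were tested and 4 were lower, with a median difference of -3.47 and mean levels of 5.4 to 5.49 against 7.65 to 8.35. Slc18a3, the vesicular acetylcholine transporter gene, was at least 134-fold lower, and the homeobox genes Lhx3, Mnx1 and Isl1 12-fold, 11.1-fold and 6.64-fold. Of 14 fibroblast markers, 6 exceeded 4 on each Cdx2 and FGF array against 2, with a mean level of 4.93 to 5.09 against 3.35 to 3.4. Of 7 tested, 4 were higher, all collagen genes, led by Col3a1 (at least 15.5-fold, adjusted p = 0.00652). Thy1, Lum and Dcn, other markers on this list, read 2.17 on every day 5 array, and Lum was at or near the floor in ES cells too.

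Endothelial markers stayed low, with 1 of 12 over 4 on each day 5 array and mean levels of 2.78 to 2.8 and 2.8 to 2.85. Pecam1 and Kdr were at 2.17. Of 9 tested neural crest genes 3 were higher and 1 lower, and 8 of 17 exceeded 4 on each Cdx2 and FGF array against 6 to 7. Cdh6 was 5.58-fold higher, Erbb3 at least 2.48-fold and Ret 2.28-fold, while Ngfr was 6.79-fold lower. Sox9 and Ednrb were high in both, at 10.38 and 11.7 in motor neuron cultures against 10.26 and 12.28, with no call. Sox10, which defines crest cells, read 2.78, 2.75 and 3.02 in Cdx2 and FGF cultures, and Pax3 and Tfap2a 2.17. Of 11 endoderm markers, 5 to 6 exceeded 4 against 4 to 5, with mean levels of 5.79 to 6.03 against 4.69 to 5.12; of 6 tested 4 were higher and 1 lower. Dab2 was 46.9-fold higher, Rbp4 8.09-fold and Foxa2, also a floor plate gene, 3.89-fold, while Cxcr4 was 3.83-fold lower and Sox17 lay under 4 on every array. Of 10 surface ectoderm markers 2 exceeded 4 against 1, with mean levels of 3.12 to 3.18 against 2.73 to 2.84, and of 3 tested 1 was higher. Of 10 muscle and cartilage genes, 2 exceeded 4 against 1 to 2, with mean levels of 3.59 to 3.68 against 2.99 to 3.06. Of the 3 tested 2 were higher, led by the cartilage collagen gene Col2a1 (13.9-fold). The part of these cell types in the levels of the 10 genes was not tested beyond these values.

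**Figure D3:**
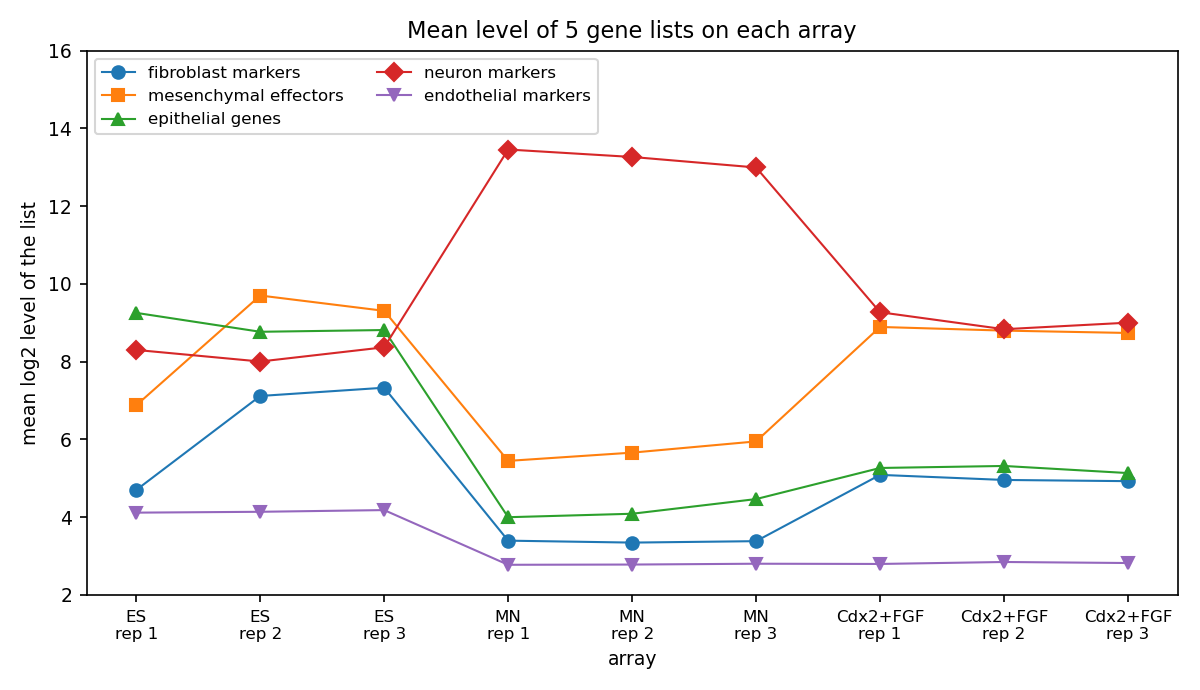
Mean log2 level of 5 gene lists on each of the 9 arrays, where each line joins the values of 1 list and has no meaning between arrays. Fibroblast markers are lower on ES replicate 1 than on ES replicates 2 and 3, and neuron markers are highest in motor neuron cultures.

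Against ES cells, motor neuron cultures asked what day 5 differentiation with retinoic acid and hedgehog agonist changed. Twist1, Snai2, Ets1 and Foxc2 were lower in motor neuron cultures, and Meox1, Foxc1, Foxf1 and Tbx1 were at the floor in both groups. Of the 8 tested genes 4 were called lower, beside 30.7% of all genes, and 0 were called higher, beside 25.9% and 56.6% in either direction. No adjusted p under 0.05 was found for the other 4, which had little room to differ. The median over all 10 genes was -1.84, or -1.1 with low values raised, against -0.08 over all genes tested. Of the genes called in this comparison 45.8% were higher, and 58.4% after median centring, which moved the median of all genes to 0.35. Of 17 epithelial genes tested, 16 were lower in motor neuron cultures and 1 higher. Cdh1 read 13.1 ± 0.17 in ES cells against 3 ± 0.37 (SD, n = 3). Of 17 mesenchymal effector genes tested, 8 were lower and 2 higher.

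Twist1 read 8.94, 9.92 and 8.36 on the ES arrays and was 32.1-fold lower in motor neuron cultures (log2 difference -5.01, SE 0.37, adjusted p = 1.45e-06). Snai2 read 6.72, 9.7 and 7.12 in ES cells, 11.9-fold higher than in motor neuron cultures with values under 4 raised to 4 (difference -4.14, SE 0.75, adjusted p = 0.000687). That fold is a lower bound for the floor only and depends on ES replicate 2. Without this array the fold was 9.26 with no values raised (difference -3.21). The second probe set of Snai2 read 2.62, 5.22 and 2.58 in ES cells and was bright on replicate 2 alone. Foxc2 read 2.9, 8.59 and 6.02 in ES cells (difference -3.65, SE 1.11, adjusted p = 0.0137). The Foxc2 call ended when genes at low values were kept in (adjusted p = 0.0601) and with values under 4 raised (adjusted p = 0.0514).

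Ets1 in ES cells depended on the probe set. The leading one, of the s_at kind, which can match more than 1 transcript, read 8.5, 8.92 and 8.97 in ES cells, at least 27.8-fold above motor neuron cultures (difference -6.2, SE 0.25, adjusted p = 3.12e-08). The second read 2.18, 2.22 and 4.34 in ES cells and the third 2.25 on each ES array. Neither differed from motor neuron cultures by enough for a call, with differences of -0.75 and -0.02. The same 3 probe sets were all bright in Cdx2 and FGF cultures. The ES arrays with this disagreement are those whose Actb controls differ between 3′ and 5′ ends, and the part of that in the disagreement was not tested.

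Prrx1 was detected on ES arrays alone, and mostly on 1 of them. Its leading probe set read 2.17, 10.51 and 6.11 in ES cells, so it exceeded 4 on 2 arrays and was not tested. Its next brightest, 2 in number, read 6.83 and 6.69 on ES replicate 2 and 2.32 or less on the other ES arrays. With no filter the difference of motor neuron cultures from ES cells was -4.09 (adjusted p = 0.129).

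As a list, fibroblast markers were lowest on ES replicate 1 and highest on replicate 3. Of 14 such markers 5 exceeded 4 on ES replicate 1 and 11 on replicates 2 and 3, with mean levels of 4.7, 7.12 and 7.33. Leaving out 1 with the same value on all 3, 10 of 13 were lowest on replicate 1. So were Foxc2, Prrx1, Snai2 and Ets1 by their leading probe sets, while Twist1 was lowest on replicate 3. Replicate 2, where Foxc2, Prrx1, Snai2 and Twist1 were highest, held the highest value of 4 of the 13. Replicate 3, where Ets1 was highest, held that of 7. Col1a1, for example, read 10.15, 10.45 and 12.68, and Col3a1 2.46, 8.47 and 7.41. Twist2 read 2.19, 8.93 and 6.58. Lum read 2.17 to 2.19 on the ES arrays, and Dcn 6.85, 2.17 and 4.41, the other way round. The part of the fibroblasts under the ES cells in these levels was not tested. Without ES replicate 2 the difference of Foxc2 between motor neuron cultures and ES cells fell to -2.27 (adjusted p = 0.0254), that of Snai2 to -3.21 and that of Twist1 to -4.58, all still called.

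**Figure D4:**
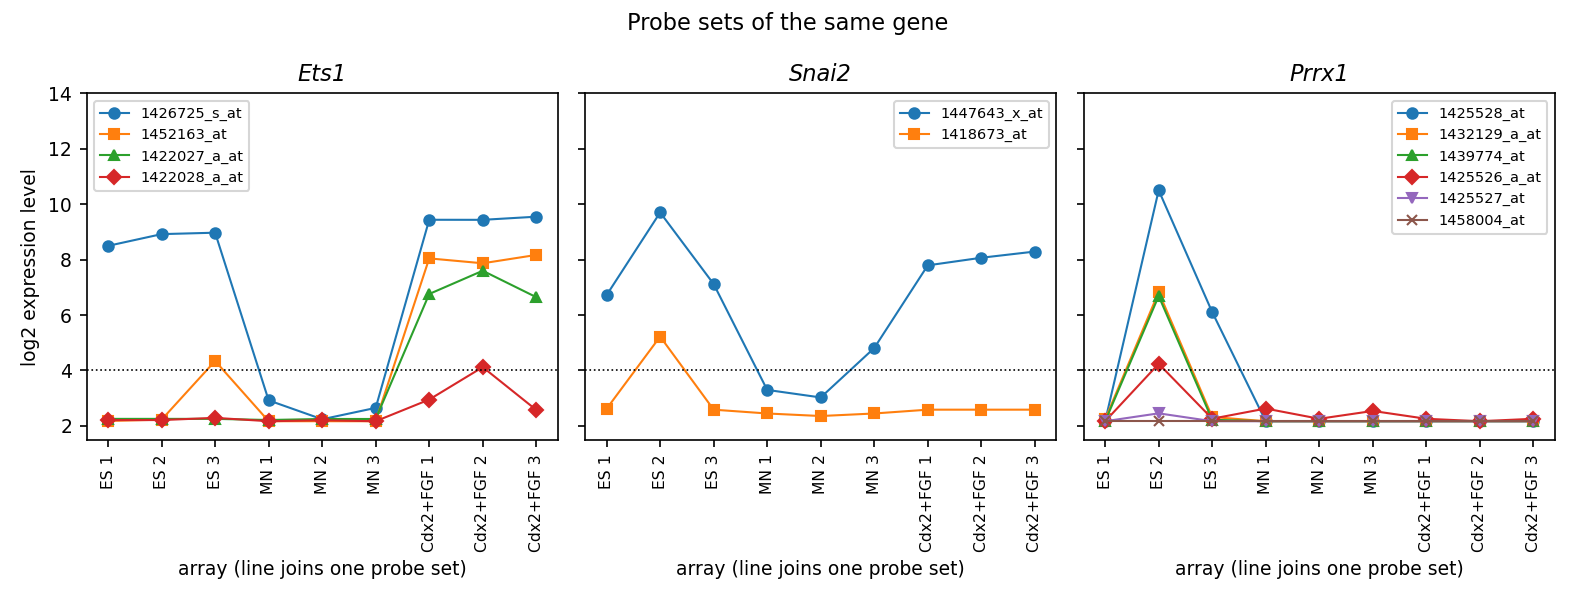
Log2 level of each probe set of Ets1, Snai2 and Prrx1 on the 9 arrays, where a line joins the values of 1 probe set and the dotted line is the level of 4. On the ES arrays 1 of 4 Ets1 probe sets lies over 8, and Prrx1 is over 4 on ES replicates 2 and 3 and on no day 5 array.

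Set against ES cells directly, Cdx2 and FGF cultures differed from gene to gene. Meox1, Foxc1, Foxf1, Tbx1 and, less firmly, Foxc2 were higher, while Twist1, Snai2 and Ets1, by their leading probe sets, differed from ES levels by about 1 on the log2 scale or less. Snai1 was at the floor in both groups, and Prrx1 read 2.17 on each Cdx2 and FGF array against the ES values given above, untested. This comparison shares its arrays with the 2 above. Of the 8 tested genes 5 were called higher, beside 25.4% of all genes, and 1 lower, beside 27.2%, with 52.7% called in either direction. The 5 called higher are those that passed the filter only because of their Cdx2 and FGF values, so this count too supports nothing further. The median over all 10 genes was 1.79, or 1.61 with low values raised, against 0 over all genes tested. Of all called genes 48.3% were higher, and 63.1% after median centring, with a median of all genes of 0.43.

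Meox1, Foxc1, Foxf1 and Tbx1 had the same lower bounds as over motor neuron cultures, since both reference groups lay under 4. Their log2 differences from ES cells were 8.78, 6.75, 6.76 and 6.12. Foxc2 was at least 5.79-fold higher (difference 2.9, SE 1.11, adjusted p = 0.0395), but its groups overlapped on ES replicate 2. The call ended with no filter (adjusted p = 0.125), with only the 6 arrays compared (adjusted p = 0.101), with quantile normalization again (adjusted p = 0.0576), with no intensity trend in the fit (adjusted p = 0.0514) and with any array but ES replicate 2 left out (adjusted p = 0.0576 to 0.102). The difference was 1.43 without ES replicate 1 and 4.28 without ES replicate 2 (adjusted p = 0.00118).

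Twist1 was 2.1-fold lower than in ES cells, with no overlap (difference -1.07, SE 0.37, adjusted p = 0.0257). The call ended without ES replicate 2 (-0.65, adjusted p = 0.0509), without Cdx2 and FGF replicate 2 (adjusted p = 0.0889) or 3 (adjusted p = 0.0641), with only the 6 arrays compared (adjusted p = 0.0645), with no filter (adjusted p = 0.0653) and after median centring (-0.64, adjusted p = 0.179). Snai2 differed by 0.2 with a 95% interval of -1.48 to 1.89, which leaves a rise or a fall of that size possible, and without ES replicate 2 by 1.13 (adjusted p = 0.0746). Ets1 differed by 0.68 by its leading probe set (adjusted p = 0.0364), under the size needed for a call, which it reached after median centring (1.11). Both of its other tested probe sets were called higher, at differences of 5.12 and 4.75, with lower bounds of 15.1-fold and 8.01-fold.

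**Figure D5:**
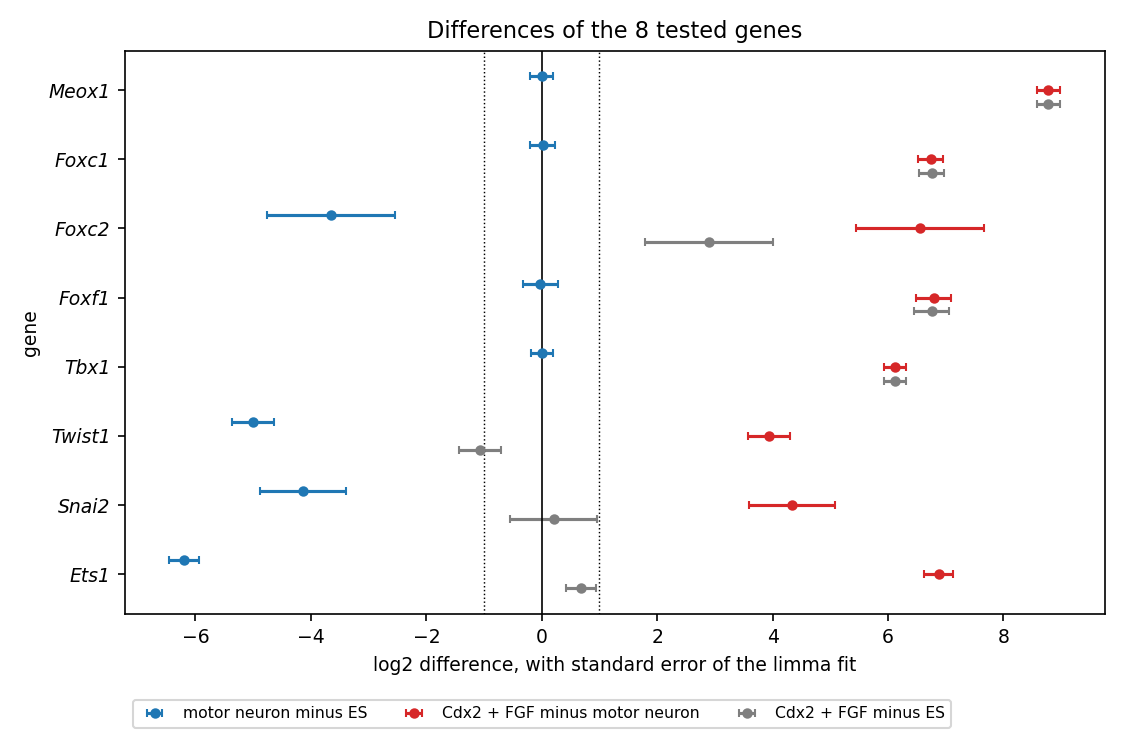
Log2 differences of the 8 tested genes in the 3 comparisons, with the standard error of the fit; the solid line is 0 and the dotted lines are at 1 and -1. The differences between Cdx2 and FGF and motor neuron cultures all lie above 1, from 3.94 for Twist1 to 8.78 for Meox1.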

How the data were processed

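The authors deposited 1 log2 value for each probe set and array. The submitters' processing notes name GCRMA, which corrects background and normalizes arrays together, and limma, with no versions or options, and RNA was amplified with a NuGEN Ovation kit per the labels' protocols. That the scale is log2 was inferred from the range, which ran from 2.165 to 16.12. A genome build is not given in the sources used here. For arrays, their number limits the precision.

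Control probe sets were left out, and 34945 probe sets naming 1 gene were used, of 45101. The probe set annotation named several symbols for 932 and none for 9211. A gene was represented by its probe set with the highest mean. All 9 arrays entered 1 limma model of group means (version 3.58.1, R 4.3.3, lmFit and eBayes with trend, 6 residual degrees of freedom). The Benjamini-Hochberg adjustment ran over the 10911 genes tested.

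The members and gene lists were chosen with earlier results of these data known. Beyond the 10 genes, the rule named up to 4 called genes per list and comparison, by the difference with values under 4 raised to 4, and the defining markers of other cell types. The alternatives were other normalization, filters, variance priors, array weights, probe set choices, a replicate block, fewer arrays and each array left out.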

Additional observations from a re-analysis of the deposited data

How the results depend on the processing

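All 175 recomputed differences of the 8 tested genes between Cdx2 and FGF and motor neuron cultures kept their call, with Snai2 untested once its x_at probe set was dropped. Over the 3 comparisons 495 kept direction and side of the threshold, 21 lost the call, 3 gained it and 6 turned direction. Those that turned were not called. They were Foxf1 between motor neuron cultures and ES cells (0.012 with quantile normalization again, 0.39 with median centring), and Snai2 in Cdx2 and FGF cultures against ES cells. Snai2 turned to -0.21 with quantile normalization again, -0.34 with the mean of its probe sets, and as low as -0.36 with an array left out. Not every array left out turned it, as the highest such difference was 1.13. The count of members lower than in ES cells in Cdx2 and FGF cultures, 1, went to 0 with median centring, with no filter and with only the 6 arrays compared, and was 0 to 1 with an array left out. Without x_at and s_at probe sets 2 members, not 4, were lower in motor neuron cultures than in ES cells, since Ets1 lost its call (-0.75, adjusted p = 0.209) and Snai2 was again not tested. The count of members higher than in ES cells in Cdx2 and FGF cultures, 5, was 4 without Foxc2 in the settings that ended its call. With each probe set by itself, 9 member probe sets, against 5 members, were higher than in ES cells in Cdx2 and FGF cultures. All probe sets then gave 6396 higher and 5314 lower between motor neuron cultures and ES cells (2826 and 3346 genes), 2165 and 1718 between the day 5 cultures (1220 and 939), and 6285 and 4678 for Cdx2 and FGF cultures against ES cells (2774 and 2971). Same-numbered arrays of different groups shared little deviation (correlations -0.03 to 0.08), and not every array correlated best with its own number, so the numbers were not taken as pairs. With the replicate block, 1206 genes were higher and 931 lower between the day 5 cultures, and no member changed its call. Other causes were not tested. Levels near the floor limit what these arrays can show of Snai1 and Prrx1.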

Other observations

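The neighbours of these genes on the chromosome were named from the GRCm38.p6 gene table. Of those given here, Foxl1 is also on the list of other mesoderm and mesenchyme factors. Foxf1, Mthfsd, Foxc2 and Foxl1 follow each other on chromosome 8. Foxf1 and Foxc2 rose between motor neuron and Cdx2 and FGF cultures, whereas Mthfsd between them read 7.6 ± 0.01 and 7.7 ± 0.16 (SD, n = 3; adjusted p = 0.8), and Foxl1 read 2.17 on each of these arrays. Etv4, an ETS gene induced by FGF and the neighbour of Meox1, went from 2.17 ± 0 to 7.35 ± 0.11 (log2 difference 5.18, adjusted p = 1.17e-05), while Sost on the other side read 2.28 and 3.48 ± 0.55 and was not tested. Efcab1, next to Snai2, went from 3.66 ± 0.65 to 7.51 ± 0.07 (difference 3.85, adjusted p = 2.43e-05). Next to Twist1, Ferd3l read 2.17 in both groups, and Hdac9 3.51 ± 0.43 and 2.47 ± 0.12, untested. These neighbours were looked up for their position after the values of the members were seen.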
